A study of Mus musculus with 354 samples.

Results

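The ERBB family comprises 4 receptor tyrosine kinases (*Egfr*, *Erbb2*, *Erbb3* and *Erbb4*), which were examined here together with 6 of their ligands (*Nrg1*, *Areg*, *Ereg*, *Hbegf*, *Tgfa* and *Btc*). These 10 genes, out of the 55367 listed in the count files, were chosen by name and not by a cut on their values. Earlier results of these data were known when they were chosen. Single GFP+ cells had been sorted from the cochleae of P3 pups of both genotypes and sequenced with SMART-Seq Single PLUS, a full-length cDNA chemistry. All pups carried the Fgfr3-iCre driver together with the ROSA-floxed-rtTA/GFP allele. CA-ERBB2 pups also carried TetON-CAERBB2, an inducible transgene for a constitutively active (CA) form of ERBB2, which their Control littermates lacked. The protocol lists tamoxifen (75 mg/kg) at P0 and P1 and doxycycline (100 mg/kg) at P2 for the pups in general, while the treatment label of single samples is given for CA-ERBB2 cells only. Each genotype comprised 177 cells, in 59 wells on each of 3 plates, and the plate was used as the replicate. Pups were pooled for each plate and their sex was not determined. The Fgfr3 promoter drives Cre in a subset of cochlear cells, so the GFP+ gate follows that promoter and not the transgene itself.

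The ERBB receptors are activated as dimers. EGFR binds ligands such as amphiregulin (*Areg*), epiregulin (*Ereg*), HB-EGF (*Hbegf*), TGF-alpha (*Tgfa*) and betacellulin (*Btc*), while ERBB3 and ERBB4 bind neuregulins such as *Nrg1*. ERBB2 has no known ligand of its own and is the preferred partner of the other receptors, whereas ERBB3 has little kinase activity and depends on a partner. In the inner ear, neuregulin from neurons and ERBB receptors on glia and supporting cells (SCs) are known for their part in glial survival and in communication between neurons and SCs. The CA form signals without a ligand or a partner, according to the study's methods, so the levels of the ordinary receptors and ligands describe the setting in which it was switched on.

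The summed depth was 108357282 to 188636940 counts per plate. Cells on the plates numbered 1 had medians of 10198 (CA-ERBB2) and 8679 (Control) genes detected, against 1742 to 2954 on the other 4 plates, and 23 cells of Control plate 2 and 10 of Control plate 3 had fewer than 100000 counts. Counts were found for 14 of 14 SC markers, with 2295 to 3831 CPM (read counts scaled to a common library total) summed over the list on CA-ERBB2 plates and 2299 to 4905 CPM on Control plates. *Fgfr3*, whose promoter drives Cre, had counts in 12 to 33 of the 59 cells of a plate. All markers of mesenchyme (7 genes), Schwann cells (7), macrophages (7), hair cells (8), melanocytes (5) and endothelium (5) also had counts, with plates that overlapped. Mesenchyme markers summed to 5070 to 8662 CPM in CA-ERBB2 and 4874 to 9407 CPM in Control, and Schwann cell markers to 624 to 1554 and 426 to 2520 CPM. The 7 neuron markers summed to 103 to 134 CPM on CA-ERBB2 plates and to 139 to 543 CPM on Control plates. The 5 markers of the greater epithelial ridge summed to 1219 to 2398 CPM on CA-ERBB2 plates and to 3009 to 4124 CPM on Control plates. The plates thus did not overlap in the sums of these last lists. Of the ridge markers, only *Epyc* and *Tectb* kept the plates apart when taken alone, with *Tectb* at 362 to 1054 against 1411 to 2773 CPM. *Itm2a* had 286 to 1088 CPM on CA-ERBB2 plates and 139 to 402 CPM on Control plates. Each of the 7 neuron markers overlapped when taken alone, so these sums do not describe whole cell types. Of 8 genes not expected in cochlea, *Ins2* and *Gh* were at 0 and the list summed to 0.251 to 4.42 CPM. The part that these differences have in the results below was not tested. In values summed over a plate, fewer cells expressing a gene and less RNA per cell cannot be told apart.

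*Erbb2*, of which the transgene is a mutated form, had the largest fold change of the 4 receptors. It lies on the plus strand of chromosome 11 in GRCm38, from 98412470 to 98437716, and its exons span 5210 bases. Counts were scaled to CPM with TMM factors (edgeR's correction for library composition). *Erbb2* reached 106, 46.0 and 120 CPM on CA-ERBB2 plates 1, 2 and 3 and 19.8, 3.24 and 12.4 CPM on Control plates 1, 2 and 3. The lowest CA-ERBB2 plate was therefore above the highest Control plate. The mean was 90.6 ± 39.1 CPM (SD, n = 3 plates) against 11.8 ± 8.30 CPM (SD, n = 3 plates), a log2 fold change of 2.94 (standard error 0.761). Calls required an adjusted p below 0.05 together with a log2 fold change of over 1 up or down. With edgeR's quasi-likelihood test the p-value was 0.00291 (0.774 after Benjamini-Hochberg adjustment for all 21416 genes), so that *Erbb2* was not called. DESeq2 on the same sums called it (adjusted p = 0.0251, log2 fold change 3.00), as did edgeR without a filter on low counts (adjusted p = 0.0431, log2 fold change 2.92). These settings called 1.25% and 0.727% of all genes they tested, against 0.00467% in edgeR with the filter. The counts do not separate transgene reads from reads of the endogenous gene. The species and sequence of the transgene were not available, so how fully its reads map to mouse *Erbb2* is not known.

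Among the 10 members, 9 passed the filter on low counts, *Ereg* did not, and 0 were called. *Erbb2* was the member with an unadjusted p under 0.05, a level met by 5.16% of all genes tested. It was also the member whose CA-ERBB2 plates all lay above the Control plates, as for 4.2% of all genes. *Egfr* was the member whose CA-ERBB2 plates all lay below them, as for 4.88% of all genes. The plates of the other 7 members tested overlapped. The median log2 fold change was -0.38 over these 9 genes and -0.02 over all genes tested.

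**Figure D1:**
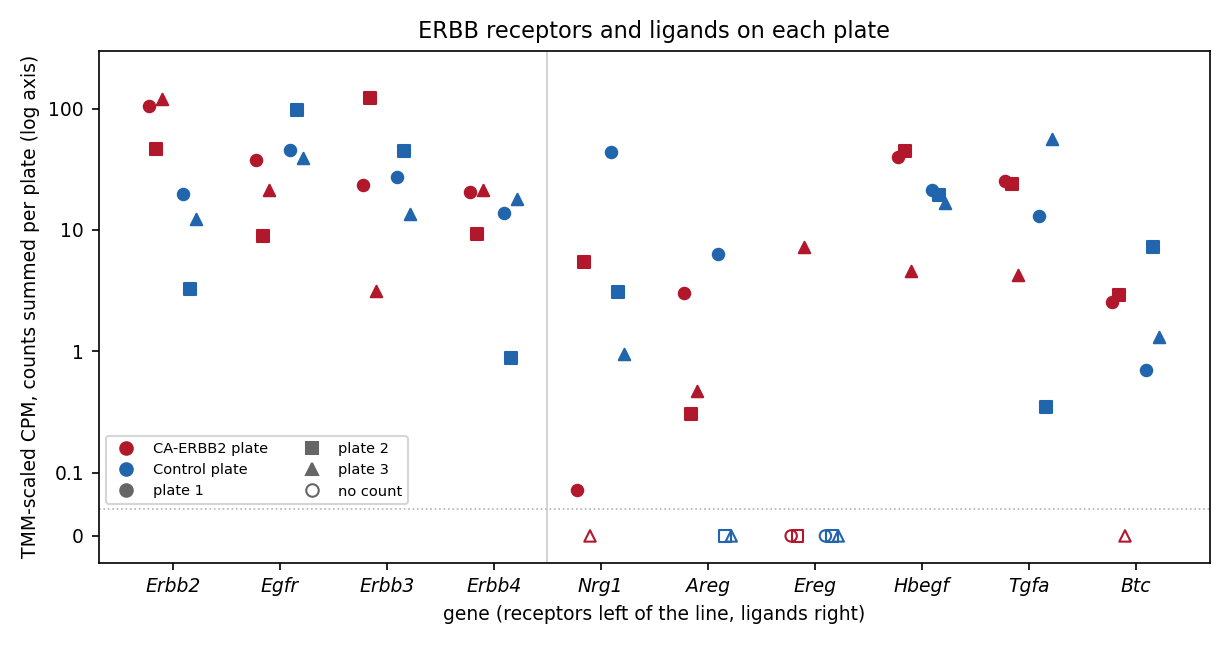
TMM-scaled CPM (log axis) of each ERBB receptor and ligand, with 1 point for each plate and open symbols at the bottom for plates without a count. The CA-ERBB2 plates (red) lie above the Control plates (blue) for *Erbb2*, from 46.0 to 120 against 3.24 to 19.8 CPM, and below them for *Egfr*, from 8.86 to 37.7 against 39.2 to 97.5 CPM.

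*Erbb2* counts were found in 43, 22 and 17 of the 59 cells on CA-ERBB2 plates 1, 2 and 3, and in 38, 7 and 6 of 59 on Control plates 1, 2 and 3. The shares were 46.3 ± 23.4% (SD, n = 3 plates) and 28.8 ± 30.8% (SD, n = 3 plates), and the plates overlapped (two-sided exact permutation test, p = 0.5, and 1 after adjustment over 18 shares). With 3 plates in each group, this test cannot give a p below 0.1. The difference of 17.5 percentage points was 4.24 without CA-ERBB2 plate 1 and 35.3 without Control plate 1. Both plates numbered 1 had the most genes detected, so leaving out only 1 of them unbalances the groups. At each plate number, more CA-ERBB2 than Control cells had *Erbb2*. With the plate number as a block, the permutation test cannot give a p below 0.25. Thus 95 of the 177 CA-ERBB2 cells had no *Erbb2* count, and 51 of the 177 Control cells had at least 1. Any transgene reads that did not map to mouse *Erbb2* are missing from these counts.

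The level within cells was then compared among cells with an *Erbb2* count. The median over these cells was 127, 37.9 and 40.4 CPM on CA-ERBB2 plates 1, 2 and 3, and 19.9, 12.9 and 26.2 CPM on Control plates 1, 2 and 3. These medians did not overlap, but those over cells at 10 CPM or more did, with 177, 62.9 and 146 CPM against 36.5, 21.6 and 81.6 CPM. At least 100 CPM was reached by 23, 5 and 8 cells on the CA-ERBB2 plates, and by 3, 0 and 2 cells on the Control plates. Plates also stood apart at 200 CPM, with 17, 3 and 5 cells against 1, 0 and 1. They overlapped at lower thresholds, with 27, 8 and 8 against 10, 0 and 2 cells at 50 CPM and 35, 14 and 11 against 25, 5 and 4 cells at 10 CPM. These measures were chosen after the first values had been seen and are given without a test. The highest cell, in well A3 of CA-ERBB2 plate 3, had 1125 CPM (4504 counts) and 9839 genes detected, with no count of *Egfr*, *Erbb3* or *Erbb4*. It had counts of 7 of 7 mesenchyme and 6 of 14 SC markers, and supplied 41.7% of the *Erbb2* counts of its plate. Without the cell holding the most counts on each plate, the plates stood at 95.5, 30.05 and 71.9 CPM for CA-ERBB2 and at 15.5, 2.27 and 5.07 CPM for Control, and still did not overlap.

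**Figure D2:**
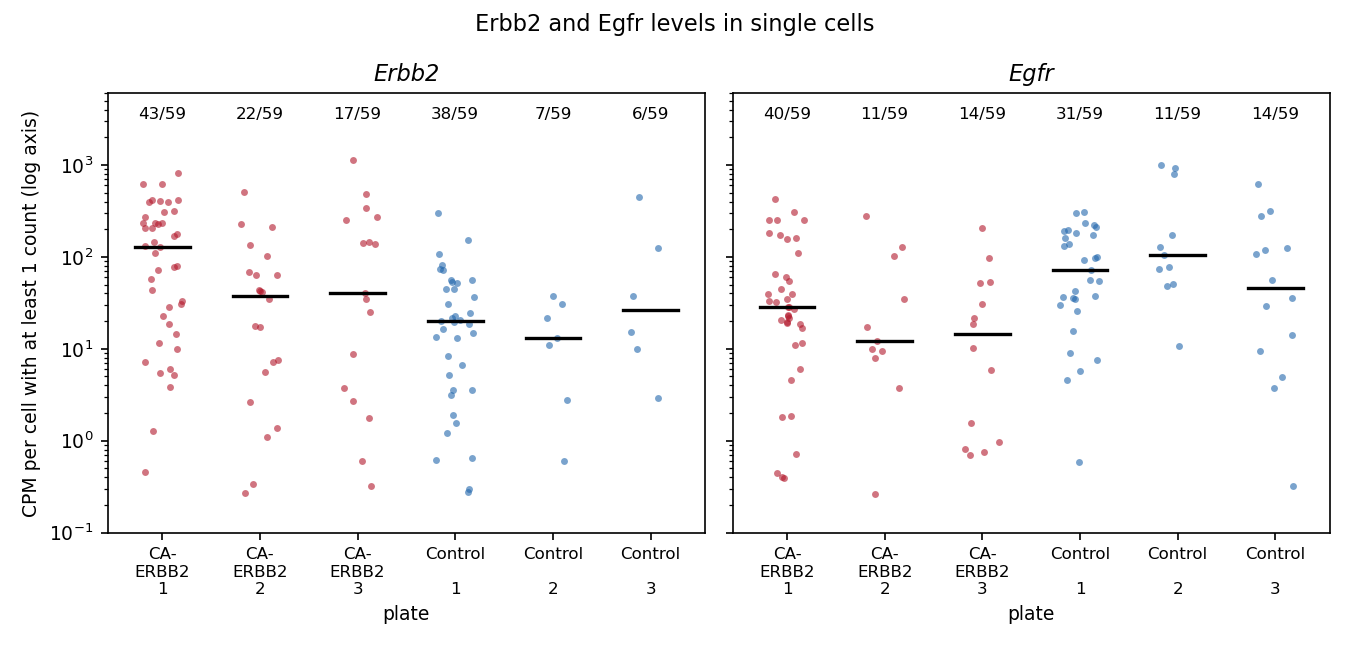
CPM (log axis) of *Erbb2* and *Egfr* in each cell with at least 1 count, by plate, with a line at the median and the number of cells with a count out of 59 above. For *Erbb2* the medians were 37.9 to 127 CPM on CA-ERBB2 plates and 12.9 to 26.2 CPM on Control plates, and for *Egfr* 12.1 to 28.6 and 46.0 to 104 CPM.

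The levels of the genes beside *Erbb2* on chromosome 11 were also compared. *Pgap3*, which acts on GPI anchors and lies 11980 bases to the left, had 2.43, 4.51 and 4.14 CPM on CA-ERBB2 plates and 5.53, 2.83 and 1.19 CPM on Control plates. *Grb7*, an adaptor that binds activated ERBB2 and lies 8678 bases to the right, had 6.56, 0.293 and 0.0222 CPM against 1.10, 2.96 and 2.99 CPM. Both pairs of groups overlapped. *Mien1*, whose exons share 9 bases with those of *Erbb2* on the opposite strand, had 60.1, 193 and 176 CPM against 55.1, 58.2 and 180 CPM, which overlapped as well. None of these 3 genes was called by edgeR (adjusted p between 0.955 and 0.999).

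*Egfr*, the receptor of most of the ligands examined, had the opposite order. It stood at 37.7, 8.86 and 21.3 CPM on CA-ERBB2 plates 1, 2 and 3 and at 45.6, 97.5 and 39.2 CPM on Control plates 1, 2 and 3. The log2 fold change was -1.43 (standard error 0.693, edgeR p = 0.0655, adjusted p = 0.911). The groups overlapped when plates were scaled by their totals alone, where CA-ERBB2 plate 1 had 49.9 CPM and Control plate 3 had 38.3 CPM, and when the cell with the most *Egfr* counts was removed from each plate. Counts were found in 40, 11 and 14 cells on CA-ERBB2 plates and in 31, 11 and 14 cells on Control plates. Their median level was 28.6, 12.1 and 14.4 CPM against 72.9, 104 and 46.0 CPM.

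*Erbb3*, the kinase-poor neuregulin receptor, stood at 23.3, 121 and 3.14 CPM on CA-ERBB2 plates and at 27.3, 44.9 and 13.5 CPM on Control plates. Its spread between plates was larger than the difference between genotypes (log2 fold change 0.79, standard error 1.03, edgeR adjusted p = 0.961). A single cell, in well A10 of CA-ERBB2 plate 2, had 3519 CPM and held 79.1% of the counts of that plate. Without CA-ERBB2 plate 2 the log2 fold change was -1.12. Counts were found in 24, 14 and 3 CA-ERBB2 cells and in 20, 7 and 10 Control cells.

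*Erbb4*, which binds neuregulins and some EGFR ligands, stood at 20.6, 9.30 and 21.3 CPM on CA-ERBB2 plates and at 13.9, 0.874 and 17.9 CPM on Control plates. The groups overlapped (log2 fold change 0.65, standard error 1.02, edgeR adjusted p = 0.971). Counts were found in 29, 6 and 5 CA-ERBB2 cells and in 18, 4 and 10 Control cells. The cell with the highest *Erbb4* level, 1215 CPM in well E1 of Control plate 3, rested on 6 counts out of a total of 4939.

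The make-up of the receptor reads was compared per kilobase of exon, since the exons of the 4 receptors span 5210 to 12355 bases. On this scale *Erbb2* stood at 20.3, 8.84 and 23.0 CPM per kilobase on CA-ERBB2 plates 1, 2 and 3 and at 3.81, 0.622 and 2.37 on Control plates 1, 2 and 3. *Egfr* stood at 3.33, 0.782 and 1.88 CPM per kilobase on CA-ERBB2 plates and at 4.03, 8.60 and 3.46 on Control plates. *Erbb2* made up 69.6, 28.9 and 84.8% of the receptor reads per kilobase on CA-ERBB2 plates, and 28.2, 3.71 and 24.9% on Control plates. The gap between CA-ERBB2 plate 2 and Control plate 1 was narrow, and the groups overlapped without wells A12 to D12, without cells of low quality and with each cell weighted equally. *Egfr* made up 11.4, 2.56 and 6.94% on CA-ERBB2 plates and 29.8, 51.3 and 36.4% on Control plates, which did not overlap under these 3 alternatives either. *Erbb3* made up 13.3, 66.1 and 1.93% on CA-ERBB2 plates and 33.6, 44.5 and 23.6% on Control plates. On CA-ERBB2 plate 2, 1 cell held 79.1% of the *Erbb3* counts. The *Erbb3* share of that plate stayed at 66.1 to 66.9% under the 3 alternatives, and the shares without that cell were not computed. The shares of the 4 receptors add up to the whole, so they do not vary independently. They were computed after the first values had been seen and are given without a test.

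The same order was found cell by cell. Among the cells with a count of any receptor, *Erbb2* had the highest CPM per kilobase in 33 of 54, 17 of 27 and 15 of 23 cells on CA-ERBB2 plates 1, 2 and 3, which is 61.1, 63.0 and 65.2%. On Control plates 1, 2 and 3 it led in 12 of 49, 2 of 17 and 4 of 20 cells, which is 24.5, 11.8 and 20.0%. *Egfr* led in 36 of the 86 receptor-positive Control cells and in 22 of the 104 CA-ERBB2 cells, and *Erbb3* led in 21 and 9, respectively. With each cell thinned to 100000 counts, *Erbb2* led in 57.7, 60.0 and 61.1% on CA-ERBB2 plates and in 32.6, 11.8 and 15.4% on Control plates. Among cells with counts of at least 2 receptors, it led in 45 of 65 CA-ERBB2 cells and in 10 of 53 Control cells. The 3 CA-ERBB2 plates lay close together in this share, although their shares of cells with an *Erbb2* count ranged from 28.8 to 72.9%. This measure was also chosen after the first values had been seen, and no test is given.

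**Figure D3:**
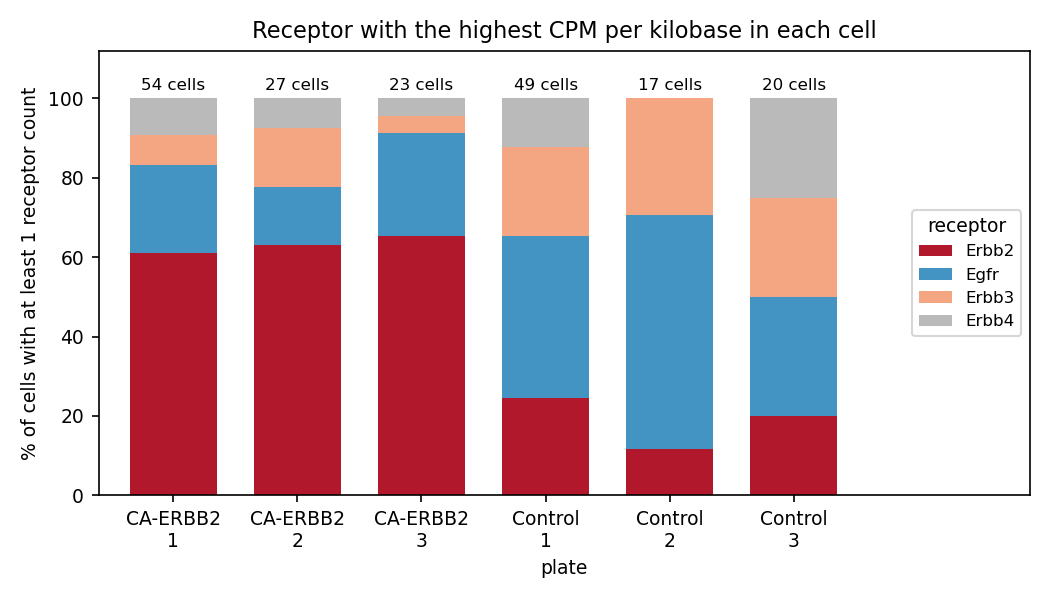
Share of the cells with at least 1 receptor count in which each receptor had the highest CPM per kilobase, as stacked bars by plate with the number of cells above. *Erbb2* (dark red) led in 61.1 to 65.2% of these cells on CA-ERBB2 plates and in 11.8 to 24.5% on Control plates.

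Since ERBB2 works in dimers with the other receptors, their presence in the same cell was counted. *Erbb2* and at least 1 partner were found together in 38, 13 and 11 of 59 cells on CA-ERBB2 plates 1, 2 and 3, and in 33, 5 and 5 of 59 on Control plates 1, 2 and 3. The shares were 35.0 ± 25.5% and 24.3 ± 27.4% (SD, n = 3 plates each), and the difference was smaller than the spread between plates (two-sided exact permutation test, p = 0.5, and 1 after adjustment over 18 shares). The difference of 10.7 percentage points became 2.86 after thinning and -3.95 without CA-ERBB2 plate 1, which leaves the gene-rich Control plate 1 without its counterpart. At each plate number, more CA-ERBB2 than Control cells had *Erbb2* with a partner. *Egfr* accompanied *Erbb2* in 49 CA-ERBB2 and 34 Control cells, *Erbb3* in 39 and 23, and *Erbb4* in 32 and 19. All 4 receptors were found in 22 CA-ERBB2 cells, 17 of them on plate 1, and in 11 Control cells. Wells A12 to D12 of CA-ERBB2 plate 1 and wells A12 to C12 of CA-ERBB2 plate 2 were among them. Over the 6 plates, wells A12 to D12 had medians of 13145.5 to 17397 genes detected, against 1216 to 10095 in the other wells. Whether each of these wells held a single cell is not stated. *Erbb2* alone was found in 20 CA-ERBB2 and 8 Control cells.

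Partner receptors were found more often in cells with *Erbb2* than in cells without it, on each of the 6 plates. A partner was present in 62 of 82 CA-ERBB2 cells with *Erbb2* and in 22 of 95 without, and in 43 of 51 Control cells with *Erbb2* and in 35 of 126 without. *Erbb3* was found with and without *Erbb2* in 39 of 82 against 2 of 95 CA-ERBB2 cells and 23 of 51 against 14 of 126 Control cells. Cells with *Erbb2* also had more genes detected, with medians of 4615 to 11000 on CA-ERBB2 plates and 9283 to 13443 on Control plates. In cells without *Erbb2* the medians were 1191 to 8502 and 1121 to 6178 genes. Detection of any of these genes thus went with the number of genes detected, whose part in the pairing was not tested. With each cell thinned to 100000 counts, a partner was found in 40 of 62 CA-ERBB2 cells with *Erbb2* and in 28 of 113 without, and in 32 of 37 and 36 of 107 Control cells. *Erbb3* was then found in 29 of 62 CA-ERBB2 cells with *Erbb2* and in 5 of 113 without. The order for any partner held on 3 of 3 thinned plates of each genotype, but single receptors did not always keep it. *Egfr* was found in 20 of 36 and 12 of 23 thinned cells of CA-ERBB2 plate 1, and *Erbb4* in 0 of 6 and 1 of 30 of Control plate 2. At a threshold of 10 CPM, *Erbb3* was found in 0 of 11 and 1 of 48 cells of CA-ERBB2 plate 3. Without thinning, the ligands *Hbegf* (42 of 82 and 12 of 95 CA-ERBB2 cells, 25 of 51 and 17 of 126 Control cells) and *Tgfa* (42 of 82 and 8 of 95, 18 of 51 and 12 of 126) were also found more often with *Erbb2* on each of the 6 plates. The other ligands did not have this order on every plate. *Btc* had it on 2 of 3 plates of each genotype, *Nrg1* on 1 of 3 CA-ERBB2 and 2 of 3 Control plates, *Areg* on 3 of 3 and 0 of 3, and *Ereg* on 0 plates.

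**Figure D4:**
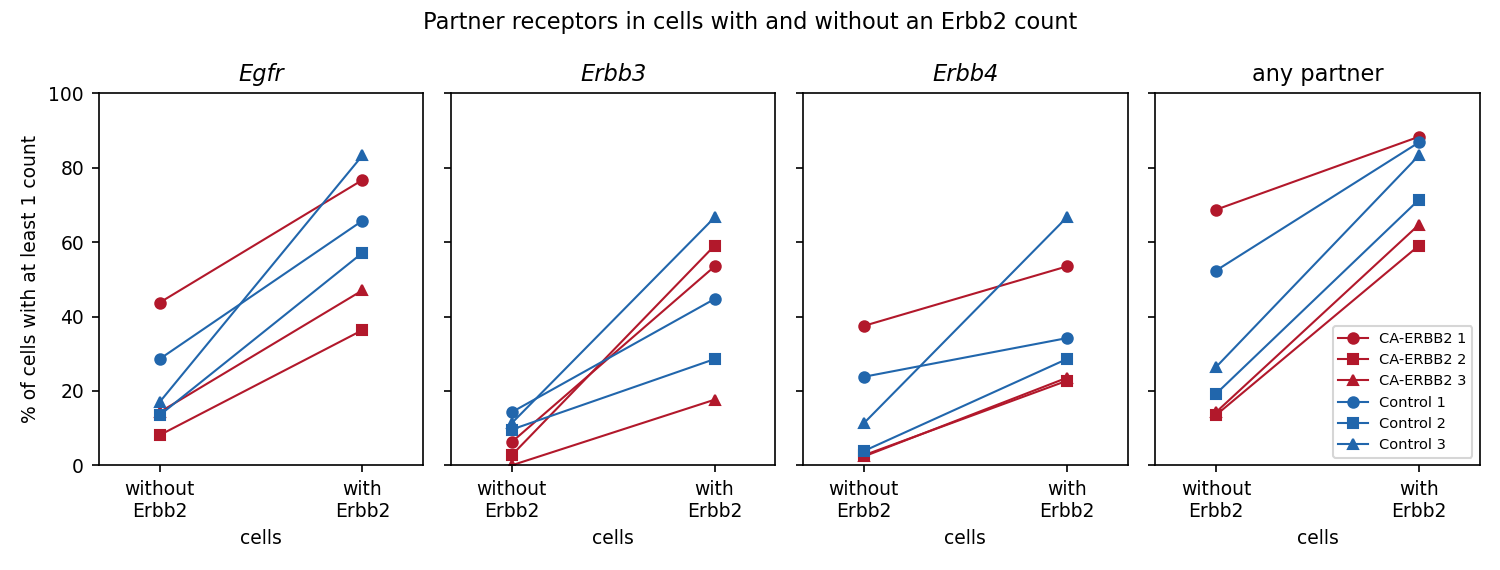
Share of cells (vertical axis, %) with a count of *Egfr*, *Erbb3*, *Erbb4* or any of them, in cells without and with an *Erbb2* count, with 1 line for each plate. Each line goes up from cells without to cells with *Erbb2*, and for *Erbb3* in CA-ERBB2 cells from 2.11% to 47.6% over all plates.

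Among the ligands, *Hbegf* was found in the most cells of both genotypes. It stood at 40.0, 44.9 and 4.58 CPM on CA-ERBB2 plates and at 21.3, 19.4 and 16.6 CPM on Control plates, with counts in 37, 11 and 6 CA-ERBB2 cells and in 26, 9 and 7 Control cells. CA-ERBB2 plates 1 and 2 lay above and plate 3 below all Control plates (log2 fold change 0.64, standard error 0.818, edgeR adjusted p = 0.959). *Tgfa* stood at 25.2, 23.8 and 4.24 CPM on CA-ERBB2 plates and at 13.1, 0.344 and 56.0 CPM on Control plates. Of the *Tgfa* counts of Control plate 3, 85.7% came from 1 cell with 2254 CPM. The log2 fold change of *Tgfa*, -0.38 (standard error 1.28, edgeR adjusted p = 0.984), moved to 1.43 if Control plate 3 was left out and to 0.08 if CA-ERBB2 plate 3 was. *Btc* was low throughout, with 0 to 2.93 CPM on CA-ERBB2 plates and 0.707 to 7.29 CPM on Control plates. Its log2 fold change, -0.76 (standard error 1.85, edgeR adjusted p = 0.979), was 0.86 without Control plate 2. No cell of the 59 on CA-ERBB2 plate 3 had a *Btc* count, which allows a share of up to 5.08%.

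*Areg* was found in few cells, and in CA-ERBB2 these were cells with *Erbb2* and with many genes detected. It had counts in 7, 2 and 1 CA-ERBB2 cells on plates 1, 2 and 3 and in 2, 0 and 0 Control cells. All 10 CA-ERBB2 cells with *Areg* also had *Erbb2*, at 62.8 to 821 CPM with a median of 269.7 CPM, while 82 of the 177 CA-ERBB2 cells had *Erbb2*. These 10 cells had 11691 or more genes detected, and 4 of them sat in wells A12 to D12, where cells had more genes detected than elsewhere on the plate. On CA-ERBB2 plate 1, cells with *Erbb2* had a median of 11000 genes detected, against 8502 in cells without it. The 82 of 177 is therefore not the share for cells this rich in genes. The part of gene detection in this overlap was not tested. The 7 cells of plate 1 had 4.49 to 66.2 CPM of *Areg*. The 2 Control cells had 0.909 CPM and 618 CPM, and the latter, in well E5 of plate 1, had no *Erbb2* count and 99.8% of the *Areg* counts of its plate. Because of that cell, the summed level was 3.04, 0.302 and 0.466 CPM on CA-ERBB2 plates against 6.29, 0 and 0 CPM on Control plates (log2 fold change -0.72, standard error 2.37, edgeR adjusted p = 0.984). *Ereg*, the neighbour of *Areg* on chromosome 5, had 649 counts, all in 1 cell of CA-ERBB2 plate 3 (334 CPM), which had counts of neither *Areg* nor *Erbb2*. *Ereg* was at 0 in the 177 Control cells, which allows a share of cells with a count of up to 1.69%.

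*Nrg1*, the ligand of ERBB3 and ERBB4, stood at 0.0721, 5.47 and 0 CPM on CA-ERBB2 plates and at 43.5, 3.09 and 0.942 CPM on Control plates. It had counts in 4, 7 and 0 CA-ERBB2 cells and in 8, 4 and 4 Control cells. One Control cell, in well B4 of plate 1, had 16424 CPM (9717 counts) with 626 genes detected, and supplied 93.8% of the *Nrg1* counts of its plate. It had counts of 0 of 14 SC markers and 1 of 7 neuron markers. The log2 fold change of -3.10 (standard error 2.12, edgeR adjusted p = 0.918) became -0.13 if Control plate 1 was left out, and -8.63 if CA-ERBB2 plate 2 was. Without the cell holding the most counts on each plate, *Nrg1* stood at 0.0366, 3.24 and 0 CPM against 2.69, 0.234 and 0.0680 CPM.

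**Figure D5:**
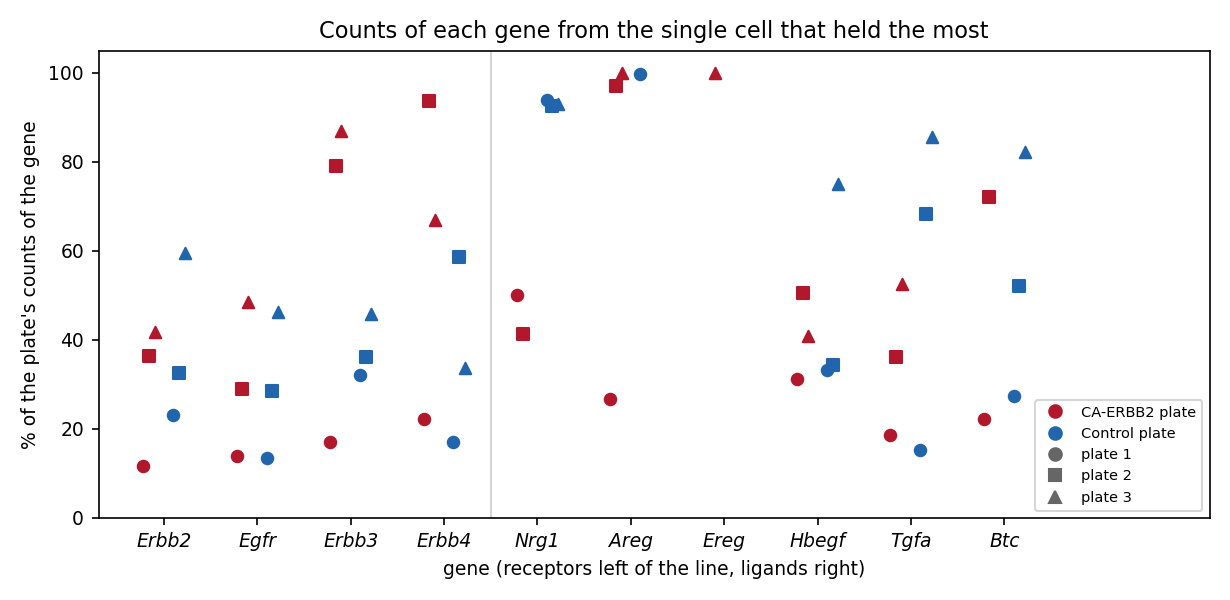
Share of a plate's counts of each gene (vertical axis, %) that came from the cell with the most counts, with 1 point for each plate that had counts. For *Nrg1* this share was 92.7 to 93.8% on Control plates, 50% and 41.3% on CA-ERBB2 plates 1 and 2, and for *Erbb2* it ranged from 11.7 to 59.6% over all plates.

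At least 1 EGFR ligand (*Areg*, *Ereg*, *Hbegf*, *Tgfa* or *Btc*) was found in 46, 17 and 9 of 59 cells on CA-ERBB2 plates 1, 2 and 3 and in 35, 12 and 15 of 59 on Control plates 1, 2 and 3. The shares of 40.7 ± 33.0% and 35.0 ± 21.2% (SD, n = 3 plates each) differed by less than the spread between plates (two-sided exact permutation test, p = 0.8, and 1 after adjustment over 18 shares). Their difference of 5.65 percentage points became -13.0 without CA-ERBB2 plate 1, -1.69 without Control plate 2 and -2.92 with each cell thinned to 100000 counts. By plate number, CA-ERBB2 had more such cells on plates 1 and 2 and fewer on plate 3. *Egfr* was in the same cell in 46 of the 72 CA-ERBB2 cells and in 36 of the 62 Control cells with an EGFR ligand. *Hbegf* was found with *Egfr* in 36 CA-ERBB2 and 28 Control cells, and *Tgfa* with *Egfr* in 34 and 19. *Nrg1* was found with *Erbb3* in 7 CA-ERBB2 and 8 Control cells, and with *Erbb4* in 4 and 8.

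The receptors were then examined in cells sorted by marker level, with a marker at 100 CPM or more. These sets share cells, are pooled over plates and are ranges of a level rather than cell types. Among cells with *S100a1*, a marker of pillar and Deiters' cells, *Erbb2* had counts in 42 of 65 CA-ERBB2 and 17 of 60 Control cells, with 132 and 7.81 CPM over the summed cells. Among cells with *Epyc*, a gene of the greater epithelial ridge, it had counts in 23 of 42 and 18 of 48 cells, with 34.5 and 14.9 CPM. *Dcn* is a gene of mesenchyme that the study used as a marker of the lateral greater epithelial ridge. Among cells with *Dcn*, *Erbb2* had counts in 45 of 67 and 36 of 71 cells, with 93.3 and 17.9 CPM. The shares with *Erbb2* overlapped between plates of the 2 genotypes in each set. For *S100a1* they were 24 of 29, 13 of 21 and 5 of 15 on CA-ERBB2 plates and 13 of 20, 1 of 19 and 3 of 21 on Control plates. *Egfr* stood at 22.7 and 58.5 CPM in the first set, at 38.9 and 85.2 CPM in the second and at 45.6 and 88.3 CPM in the third. Within 50 to 200 CPM of their marker lay 41, 36 and 26 cells, respectively. The 36 CA-ERBB2 cells in which *Spp1*, *Timp1*, *Mmp9* and *Dmp1* all reached 100 CPM had *Erbb2* in 22 cells, at 124 CPM over the summed cells. In the other 141 CA-ERBB2 cells *Erbb2* was found in 60, at 80.7 CPM. The mix of plates differed between these sets, with 3, 14 and 19 cells of plates 1, 2 and 3 in the first and 56, 45 and 40 in the second. By plate, *Erbb2* was found in 3 of 3, 8 of 14 and 11 of 19 cells of the first set and in 40 of 56, 14 of 45 and 6 of 40 cells of the second.

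Other genes that act on ERBB signalling were taken from 5 lists with 48 genes in all, of which 46 passed the filter. None was called by edgeR, DESeq2 or any other setting run. The plates of both groups were apart for 8 of the 46 genes, 4 of them higher and 4 lower in CA-ERBB2. Over all genes tested, 4.2% had all CA-ERBB2 plates higher and 4.88% had them all lower. Of the 46 genes, 1 had an unadjusted p under 0.05 in edgeR, against 5.16% of all genes. Whether these lists differ from all genes in this respect was not tested. The median log2 fold change was -0.01 over the 46 genes and -0.02 over all genes tested. Among 22 adaptors and effectors, *Plcg1* (phospholipase C gamma) stood at 30.9, 25.2 and 68.7 CPM on CA-ERBB2 plates and at 19.1, 4.97 and 15.8 CPM on Control plates (edgeR adjusted p = 0.911). *Stat3*, a transcription factor activated by growth factor and cytokine receptors, stood at 39.9, 53.6 and 241 CPM against 36.3, 39.3 and 38.3 CPM (adjusted p = 0.911). *Gab1*, a docking protein of receptor tyrosine kinases, stood at 36.9, 16.4 and 26.2 CPM against 51.0, 47.5 and 51.1 CPM (adjusted p = 0.918).

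Of the 12 genes that restrain the receptors, *Errfi1*, an inhibitor of EGFR and ERBB2 kinases, had plates that did not overlap, with 48.7, 51.1 and 57.8 CPM in CA-ERBB2 and 107, 67.1 and 61.1 CPM in Control (edgeR adjusted p = 0.933). Of the 4 chaperone genes, *Hsp90ab1*, whose product stabilizes ERBB2, stood at 1268, 1105 and 1673 CPM against 907, 973 and 988 CPM (adjusted p = 0.936). *Stub1*, a ubiquitin ligase that works with chaperones, stood at 155, 162 and 158 CPM against 141, 139 and 133 CPM (adjusted p = 0.975), an order that was lost when plates were scaled by their totals alone (log2 fold change -0.08). The 5 genes of ligand shedding had no such separation. One of them, *Rhbdl2*, a rhomboid protease, had the unadjusted p under 0.05 mentioned above (p = 0.0444, edgeR adjusted p = 0.911) and is named after its values were seen. It stood at 5.02, 30.1 and 27.3 CPM on CA-ERBB2 plates and at 0.896, 1.15 and 7.97 CPM on Control plates. Of the 5 other ERBB ligands, *Epgn* and *Nrg3* did not pass the filter, and the 3 tested had log2 fold changes between -0.75 and 0.18.

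The genes whose levels went most closely with those of *Erbb2* across CA-ERBB2 cells were *Ccnc*, *Ell2*, *Copz1*, *Surf4* and *Bzw1*. Their Spearman correlations, averaged over the 3 plates and 177 cells, were 0.610 to 0.631 among 11793 genes ranked. The same 5 genes went with the number of genes detected in a cell at 0.586 to 0.696. For *Hbegf*, the closest genes were *Dcbld1*, *Rsph3b*, *Sptb*, *Gm47958* and *Adgrg6*, at 0.570 to 0.596, and these went with the number of genes detected at 0.505 to 0.579. The cells of a plate come from the same pooled pups and are not independent replicates, so these values are descriptions.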

How the data were processed

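Counts of single cells were available for 177 CA-ERBB2 and 177 Control cells. The authors trimmed reads with fastp, mapped them to GRCm38 with STAR 2.7.6a and assigned them by strand to exons of Gencode M25 genes with featureCounts (Subread 2.0.1). The deposited values are raw counts, not normalized. The study's results name UMI counts, but its methods describe no step that reads or collapses UMIs, so the values were treated as read counts. Rows were matched by gene name, and positions and exon lengths came from Gencode M21 on the same build. Each genotype comprised 3 plates of 59 cells, with the plate read from the number in each sample's name. The study states that its cells came from 3 independent sorting experiments, with several pups of a genotype sorted into a plate. The labels do not say that plates were separate litters. The p-values set the difference between genotypes against the spread between plates.

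The counts of a plate were added up and fitted in R 4.3.3 by edgeR 4.0.16 (TMM, filterByExpr, quasi-likelihood test, Benjamini-Hochberg adjustment over all 21416 genes tested), with *Ereg* left out by the filter. On data simulated from these plates, 200 of the 21416 genes were changed, all drawn from genes with a mean above 10 CPM. Of the 8-fold changes 35% were recovered, and of the 64-fold changes 88%. These rates do not cover members with lower means, such as *Areg*, *Btc* and *Nrg1*. Of 132 calls 9 were false, and 1 call was made where no gene had been changed. For shares of cells, plates were permuted exactly and two-sidedly. A gene with 1 or more counts was taken as detected. Thinning to 100000 counts left out 2 CA-ERBB2 and 33 Control cells. No cell was left out otherwise, cells had been sorted singly with scatter gates, and no doublet caller was run. Limits given with shares of 0 come from 3 cells and cover counting error only. DESeq2 1.42.0, limma 3.58.1 (pseudocount of 1), other scalings, no filter, a filter on cells, omission of wells A12 to D12, thinning, a threshold of 10 CPM, the plate number as a block and omission of each plate were run as alternatives.

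The members, the lists and the tests were chosen with earlier results of these data known. Named genes were the 10 members, the nearest neighbours of *Erbb2*, any gene called in the lists, up to 3 genes per list with the largest change among those whose plates did not overlap, and the 5 genes most like *Erbb2* and *Hbegf*.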

Additional observations from a re-analysis of the deposited data

How the results depend on the processing

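The log2 fold change of *Erbb2* stayed positive in each of the 14 alternatives, and was called in 2 of them, at 3.00 with DESeq2 and 2.92 without a filter on low counts, where 1 member was called. With 1 plate left out it ranged from 2.48 to 3.53. No pathway gene was called in any alternative. Over all genes, DESeq2 called 235 and edgeR without a filter 285, against 1 in edgeR with the filter, 0 with each cell weighted equally in limma (689 genes at an unadjusted p under 0.05) and 0 to 2 with 1 plate left out, where 0 came without Control plate 1 or Control plate 3 (1503 and 1189 genes at an unadjusted p under 0.05). Plates with the same number deviated from their genotype's mean together only in part, with correlations of 0.215, 0.082 and 0.077 over 21416 genes, so that the plate number was not taken as a pairing, although each plate correlated best with its own number, a hint from the data and not from the design. With the plate number as a replicate block, the log2 fold change of *Erbb2* was 3.18 (edgeR adjusted p = 0.989) and 0 members were called, while *Erbb3* (-0.29), *Areg* (5.15) and *Tgfa* (0.99) changed sign. With each cell weighted equally in limma, *Erbb3* (-0.047) and *Tgfa* (0.28) changed sign. Scaling by totals alone turned *Stub1* (-0.081), *Pgap3* (-0.26) and *Grb7* (0.23), moving the median of all genes from -0.02 to -0.27, and *Grb7* was 0.36 without wells A12 to D12. With 1 plate left out, the ranges that crossed 0 were -1.12 to 1.37 for *Erbb3*, -0.97 to 1.43 for *Tgfa*, -1.30 to 0.86 for *Btc*, -0.15 to 0.87 for *Pgap3* and -3.90 to 0.53 for *Grb7*. Without Control plate 1, *Areg* was at 0 in Control cells, and without wells A12 to D12 it did not pass the filter, so that no fold change is given. The cause of these changes was not tested.

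The difference in the share of cells with *Erbb2* stayed positive in each alternative run (4.24 to 35.3 percentage points with 1 plate left out). For *Erbb2* with a partner receptor, it ranged from -3.95 to 26.6 with 1 plate left out. For EGFR ligands it was -2.92 after thinning, -1.01 with the filter on cells and -13.0 to 18.4 with 1 plate left out. The share of receptor-positive cells led by *Erbb2*, higher by 44.3 percentage points in CA-ERBB2, was higher by 39.7 after thinning and by 41.1 without wells A12 to D12, which were chosen after seeing the data. At 3 plates against 3 the permutation tests cannot go below p = 0.1, and genes in few cells, such as *Areg*, *Ereg* and *Nrg1*, could not be compared reliably.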
